A study of Mus musculus with 20 samples.

Results

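Il5ra encodes the alpha chain of the interleukin-5 receptor, and its RNA was followed across mouse ovarian tumours together with its signalling partner Csf2rb, the eosinophil genes Prg2, Epx and Siglecf, and the B-1 cell genes Bhlhe41 and Zbtb32. These 7 genes, taken by symbol, are 7 of the 55406 genes of the deposited count table, and all of them also stand among the 22417 symbols of the deposited RPKM table. The question put to the data was whether Il5ra moved with the eosinophil genes or with the B-1 genes. The set was chosen by the levels of these genes across the treatment groups in these libraries, which were in view when it was proposed. The levels of Il5ra are therefore described with no test, and the calls of the other members are no independent support for choosing them. For tests, 6 of the 7 genes passed the filter on low counts. Epx did not pass it.

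The interleukin-5 receptor pairs an alpha chain, which binds the cytokine, with the common beta chain Csf2rb. That beta chain also serves the receptors for GM-CSF and interleukin-3, and it signals through JAK2 and STAT5. Eosinophils, granulocytes of type 2 immunity, depend on interleukin-5 for their growth and survival. In mice the receptor also marks B-1 cells, self-renewing B cells of the peritoneal and pleural cavities that secrete natural IgM, so that Il5ra alone does not name a cell type in a tumour grown in the peritoneum.

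RNA was sequenced from 20 tumours, read here as 1 per mouse from the titles. All were ID8 Trp53-/-Brca1-/- tumours, a mouse ovarian cancer line that lacks the tumour suppressor Trp53 and the DNA repair gene Brca1 and expresses luciferase, grown after intraperitoneal injection in C57/BL6 female mice. The cancer cells in every group, controls included, carry both deletions, and as a single cell line they limit what the tumours stand for. There were 6 groups. Controls (n = 3) received none of the agents. PARPi mice (n = 3) took the PARP inhibitor olaparib by mouth at 40 mg/kg per day, and ICB mice (n = 3) received immune checkpoint blockade, 200 µg of an antibody to PD-L1 with 100 µg of one to CTLA-4. Those given both make the PARPi+ICB group (n = 3). In the PARPi+anti-VEGFA group (n = 4), olaparib was joined by 20 µg of an antibody to VEGFA, a growth factor of blood vessels. The full combination (n = 4) held every agent. Antibodies were injected intraperitoneally, 2 times a week. Libraries held 26863893 to 34663888 counts, and levels are given in CPM, the field's unit of counts scaled to one common library total. Of the 20 libraries, 4 carried RNA of pancreatic acinar cells, namely ICB replicate 3, PARPi+anti-VEGFA replicates 1 and 4 and full combination replicate 2, and results were also computed without them. A set of 3 RNA quality genes (Rn7sk, Lars2, Mir6236) summed to 150 to 154 CPM in controls. The sum was 67.1 to 127 CPM with PARPi, 60.6 to 79.7 with ICB and 46.5 to 62.3 with PARPi+anti-VEGFA. With PARPi+ICB it was 61.6 to 82.0 CPM, and in the full combination 55.5 to 153. The part of these differences in the comparisons against control was not tested.

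In GRCm38, with the gene models of GENCODE M21, Il5ra lies at chr6:106710357-106749037 on the minus strand, and Csf2rb at chr15:78325752-78353847 on the plus strand, where it hosts the microRNA gene Mir7676-2. The eosinophil genes lie at chr2:84980461-84983632 (Prg2, plus strand), chr11:87864000-87875536 (Epx, minus strand) and chr7:43351341-43359531 (Siglecf, plus strand). Bhlhe41 lies at chr6:145858243-145865558 on the minus strand, overlapped on the other strand by the gene model Gm43909, and Zbtb32 at chr7:30589681-30598909 on the minus strand.

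The 250 bases before the start site are printed for the receptor gene, for an eosinophil gene and for a B-1 gene, since the comparison of these 3 kinds of gene is what follows. Capitals mark GATAA, the core letters bound by GATA factors, of which GATA1 is the master factor of eosinophils. The sequences are RefSeq's on GRCm38.p6, each read 5′ to 3′ along its gene, and span chr6:106749038-106749287 for Il5ra, chr11:87875537-87875786 for Epx and chr7:30598910-30599159 for the first of the 2 Zbtb32 starts, all 3 on the minus strand.
Il5ra: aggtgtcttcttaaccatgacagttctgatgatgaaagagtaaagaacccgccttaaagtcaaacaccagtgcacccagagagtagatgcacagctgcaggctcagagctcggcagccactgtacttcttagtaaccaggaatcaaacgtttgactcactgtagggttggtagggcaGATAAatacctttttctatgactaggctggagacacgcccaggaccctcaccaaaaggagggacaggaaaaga
Epx: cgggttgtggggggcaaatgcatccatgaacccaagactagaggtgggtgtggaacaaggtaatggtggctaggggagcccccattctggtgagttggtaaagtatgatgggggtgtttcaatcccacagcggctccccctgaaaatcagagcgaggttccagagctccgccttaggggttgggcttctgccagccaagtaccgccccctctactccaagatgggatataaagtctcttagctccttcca
Zbtb32: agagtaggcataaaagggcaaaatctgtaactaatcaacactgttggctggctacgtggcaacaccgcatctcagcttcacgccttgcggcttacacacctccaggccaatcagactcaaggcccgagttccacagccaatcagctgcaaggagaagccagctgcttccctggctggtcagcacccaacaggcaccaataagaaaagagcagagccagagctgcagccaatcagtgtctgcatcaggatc
The Il5ra window held GATAA 73 bases before the start, and the windows of Epx, Siglecf and Zbtb32 held none. Both strands were searched, and 22.6% of 32851 promoter windows of this length held that motif. CACGTG, an E-box of the kind bound by basic helix-loop-helix factors such as Bhlhe41, reads alike on both strands and stood in 6.02% of windows. Among the members with an entry, CACGTG was found in the window of Bhlhe41 itself, 153 bases before its start, and in none of the windows of Il5ra, Epx, Siglecf or Zbtb32. A match is a description of letters and not of binding.

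Il5ra was low in every tumour given no checkpoint antibody and higher in those given them. In controls it had 18, 8 and 5 counts (replicates 1, 2 and 3), and with PARPi 14, 5 and 12. With ICB it had 35, 17 and 53 counts, and with PARPi+anti-VEGFA 11, 16, 14 and 2. PARPi+ICB tumours had 63, 134 and 119 counts, and those of the full combination 122, 112, 55 and 45. The lowest of the 10 libraries given checkpoint antibodies, ICB replicate 2 at 0.565 CPM, and the highest of the 10 others, control replicate 1 at 0.567 CPM, met at almost the same level, and no other library crossed.

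Ordered by mean level, Il5ra stood at 3.30 ± 1.28 CPM in PARPi+ICB (SD, n = 3), 2.82 ± 1.34 in the full combination (n = 4) and 1.10 ± 0.533 with ICB (n = 3). Lower still were PARPi+anti-VEGFA at 0.345 ± 0.197 CPM (n = 4), control at 0.334 ± 0.208 (n = 3) and PARPi at 0.315 ± 0.134 (n = 3). Neighbours in that order overlapped, except that the 3 ICB libraries all lay above the 4 with PARPi+anti-VEGFA. Against control, the fitted log2 change of Il5ra was 1.70 ± 0.59 (SE) with ICB, 3.28 ± 0.58 with PARPi+ICB and 3.06 ± 0.56 in the full combination. The same value was -0.08 ± 0.66 with PARPi and 0.06 ± 0.62 with PARPi+anti-VEGFA. As each tumour was left out, these 5 values ranged from 1.30 to 2.32, 2.96 to 3.90, 2.74 to 3.68, -0.40 to 0.54 and -0.26 to 0.68, so that the last 2 had no fixed sign. PARPi+ICB stood 1.58 ± 0.51 above ICB and 3.36 ± 0.58 above PARPi on the log2 scale, and the full combination -0.23 ± 0.46 against PARPi+ICB. In bulk tumour RNA, more cells that carry the receptor and more RNA per cell cannot be told apart.

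**Figure D1:**
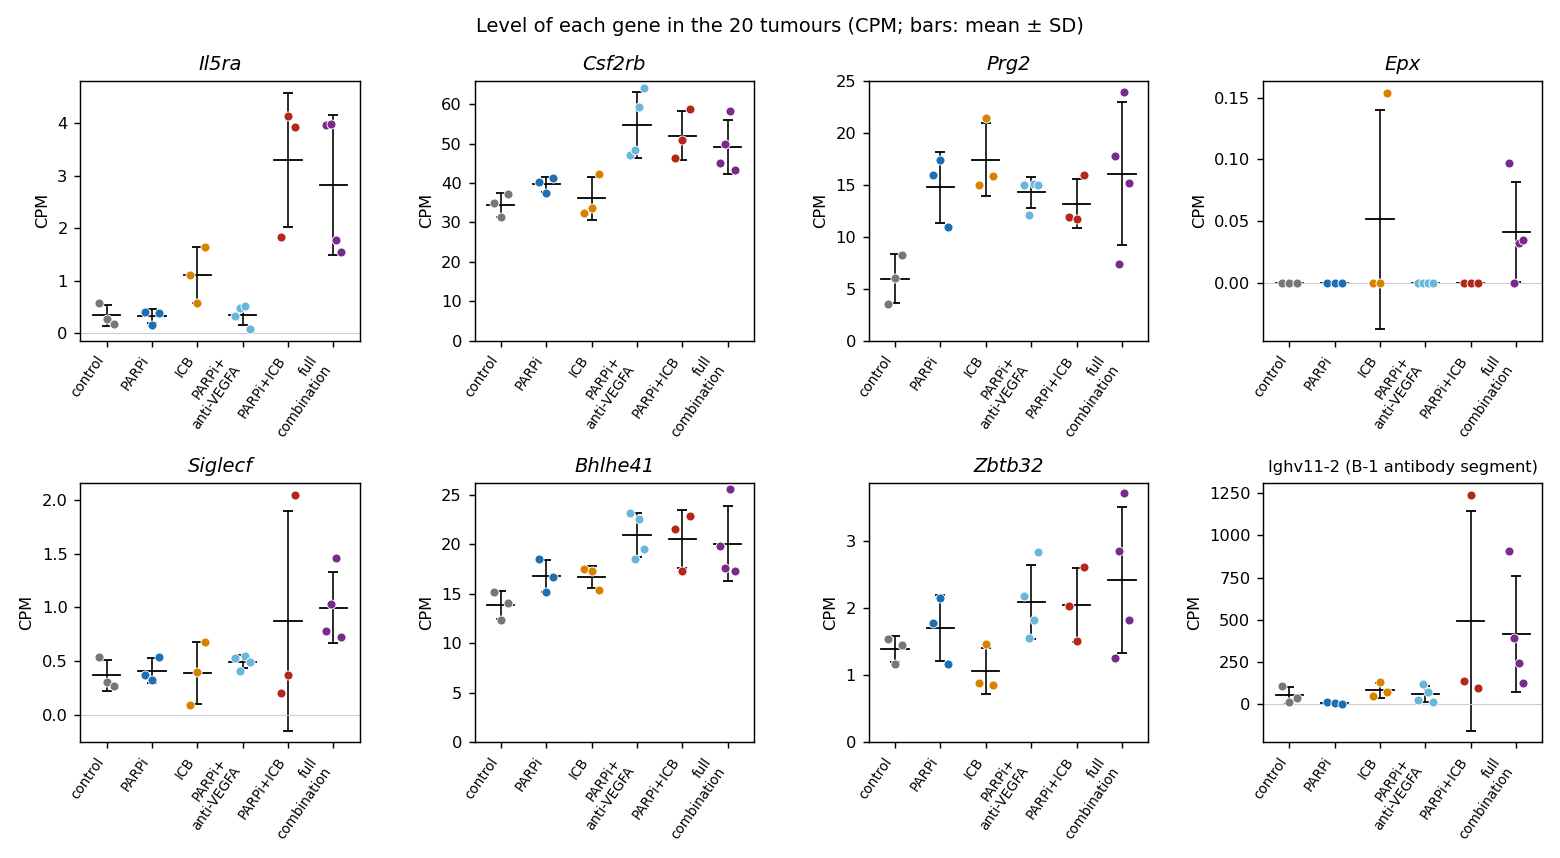
Level of the 7 genes and of Ighv11-2 in CPM (y axis) by treatment group (x axis), 1 point per tumour, with the mean (line) and SD (bar) of each group. Il5ra is above 1.5 CPM in all 7 tumours of PARPi+ICB and the full combination, Prg2 is lowest in controls, and Epx is at 0 in 16 of 20 tumours.

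Csf2rb, the signalling chain, was far more abundant than the alpha chain and did not order the groups as it did. Per kilobase of exon, Csf2rb averaged 6.20 CPM over the 20 tumours and Il5ra 0.389. In controls Csf2rb stood at 34.8, 31.3 and 37.1 CPM and with ICB at 32.4, 33.7 and 42.4. With PARPi+anti-VEGFA it stood at 47.1, 48.4, 59.3 and 64.2 CPM, with PARPi+ICB at 46.4, 50.9 and 58.8, and in the full combination at 45.1, 49.8, 58.3 and 43.3. The tumours of these 3 groups all lay above the controls, also the 4 given no checkpoint antibody. Csf2rb rose against control by 0.67 ± 0.13 log2 units with PARPi+anti-VEGFA (edgeR quasi-likelihood test, Benjamini-Hochberg adjusted p = 0.00225), by 0.60 ± 0.14 with PARPi+ICB (adjusted p = 0.00621) and by 0.51 ± 0.13 in the full combination (adjusted p = 0.00775). It was called with neither PARPi (0.21 ± 0.14) nor ICB (0.07 ± 0.14), and without ICB replicate 3 the latter value turned to -0.06. Csf2rb2, the near-identical interleukin-3 receptor chain next to it on chromosome 15, was not called in any comparison, at means of 29.4 to 40.7 CPM. Reads that fit both copies cannot be placed with certainty, and how such reads were counted is not given in the sources used here.

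Il5, the ligand, had no count in any of the 3 controls, which allows up to 0.0327 CPM over the group (3 counts over its libraries). It had 14, 3 and 5 counts with ICB, 19, 5 and 16 with PARPi+ICB, and 8, 4, 4 and 10 in the full combination. With PARPi+anti-VEGFA there were 3, 2, 3 and 2 counts and with PARPi 1, 3 and 5. Against control, Il5 was called in PARPi+ICB (mean 12.6-fold that limit, adjusted p = 0.00144) and in the full combination (6.71-fold, adjusted p = 0.00376). It was called as well with ICB (7.07-fold, adjusted p = 0.0248) and with PARPi+anti-VEGFA (2.54-fold, adjusted p = 0.0422). These folds take the treated mean as observed and leave out its own counting error. Il5 passed the filter on low counts only through tumours given checkpoint antibodies, as no other tumour had more than 5 counts. Its calls therefore lean on that filter and are no independent support. The call with ICB was lost without any one control or without ICB replicate 1, and that with PARPi+anti-VEGFA without any one library of either group, at adjusted p of up to 0.0829 and 0.0960. Il5 was thus seen in all 17 treated tumours, also in the 7 without checkpoint antibodies where Il5ra was low.

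Of 14 other genes of interleukin-5 receptor signalling that were tested, 8 rose with PARPi+ICB, namely Cish, Csf2ra, Csf2rb, Il3ra, Il5, Lyn, Socs1 and Stat5b, and none fell; 9.58% of all 18144 genes tested rose there. In the full combination the same 8 rose, against 12.6% of all genes, and Jak1, a kinase of cytokine receptors, fell by 0.19 ± 0.06 log2 units (adjusted p = 0.0353); 5 rose without control replicate 1 or 3. With ICB, 5 rose (Csf2ra, Il3ra, Il5, Socs1, Stat5b), against 1.23% of all genes, and from 0 to 3 did as each tumour was left out. The median log2 change of the 14 with PARPi+ICB was 0.36, against -0.02 over all genes tested. With PARPi+anti-VEGFA, where Il5ra stood near the control level, 7 of the 14 rose, against 9.99% of all genes (4 without control replicate 1, control replicate 3 or PARPi+anti-VEGFA replicate 3). The number of genes that rose in each of these groups includes Il5, as does the median. The calls of Il5 lean on the filter on low counts, so that it lends these numbers no independent support. Stat5b, a transcription factor downstream of the receptor, rose by 0.39 ± 0.06 with PARPi+ICB (adjusted p = 0.000301) and by 0.38 ± 0.05 with PARPi+anti-VEGFA (adjusted p = 0.000318). Il3ra, the alpha chain of the interleukin-3 receptor, rose by 0.84 ± 0.14 (adjusted p = 0.000686) and 0.76 ± 0.13 (adjusted p = 0.00106) in the same 2 comparisons.

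Prg2, the major basic protein of eosinophil granules, was higher in treated than in control tumours, but not in the order of Il5ra. It stood at 3.59, 6.08 and 8.30 CPM in controls. With PARPi it stood at 15.98, 17.4 and 10.9 CPM, with ICB at 14.995, 21.5 and 15.8, and with PARPi+ICB at 11.9, 11.7 and 15.9. PARPi+anti-VEGFA tumours had 14.97, 12.1, 15.1 and 14.96 CPM, and those of the full combination 17.8, 7.42, 24.0 and 15.1. Full combination replicate 2, which also carried acinar RNA, was the 1 treated tumour that overlapped the controls. PARPi+ICB, with the highest Il5ra, had the lowest mean Prg2 of the 5 treated groups, 13.2 ± 2.37 CPM (SD, n = 3), and PARPi, with the lowest Il5ra, had 14.8 ± 3.40 (n = 3).

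Prg2 rose by 1.54 ± 0.33 log2 units with ICB (adjusted p = 0.0223), 1.25 ± 0.31 with PARPi+anti-VEGFA (adjusted p = 0.0108), 1.14 ± 0.33 with PARPi+ICB (adjusted p = 0.0246) and 1.43 ± 0.31 in the full combination (adjusted p = 0.00369). With PARPi alone the value was 1.303 ± 0.33, not called at an adjusted p of 0.121. Control replicate 1, the tumour with the least Prg2, weighed on these calls. Without it the adjusted p was 0.0864 with ICB, 0.0586 with PARPi+anti-VEGFA and 0.107 with PARPi+ICB. The ICB call was also lost without control replicate 2 (0.0765) or ICB replicate 2 (0.0879), and the PARPi+ICB call without control replicate 2 (0.0658) or PARPi+ICB replicate 3 (0.107). Erythroid genes lay the opposite way: their summed level was 41.1 to 133 CPM in controls, lay between 5.29 and 24.1 in every ICB or PARPi+ICB tumour, and reached 48.1 in PARPi, 61.7 in PARPi+anti-VEGFA and 91.6 in the full combination. The median Spearman's rho of the 7 genes with Prg2 over the 20 tumours was -0.49, and their part in the change of Prg2 was not tested.

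Epx, the eosinophil peroxidase that with Prg2 defines the eosinophil granule, was nearly absent. It had no count in 16 of 20 tumours, 5 counts in ICB replicate 3, 3 in full combination replicate 1, and 1 each in full combination replicates 3 and 4. Controls, PARPi, PARPi+anti-VEGFA and PARPi+ICB had none. Ear6, another eosinophil granule gene, had 1 count in the whole series. Prg3, the second major basic protein of eosinophils, had 2 to 32 counts per tumour and was called in no comparison. The granule genes thus stood at very unequal levels: per kilobase of exon Prg2 averaged 16.4 CPM, against 0.00581 for Epx and 0.393 for Prg3.

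Siglecf, a sialic acid-binding lectin of eosinophils and of some macrophages, was rare, with 3 to 62 counts per tumour. It stood at 0.535, 0.302 and 0.265 CPM in controls, at 0.0943, 0.399 and 0.677 with ICB and at 0.204, 0.371 and 2.05 with PARPi+ICB. In the full combination it stood at 0.779, 1.03, 1.46 and 0.724 CPM, above every control. No comparison called it. The change against control was 1.43 ± 0.64 in the full combination (adjusted p = 0.113) and 1.22 ± 0.67 with PARPi+ICB (adjusted p = 0.233). The latter rested on PARPi+ICB replicate 3, without which it was -0.35. That tumour also held the most Ccr3, the eotaxin receptor of eosinophils (54 counts, against 9 and 6 in the other two of its group), and the most Ear2 (425, against 144 and 81). Ccr3 further had 49 counts in each of full combination replicates 3 and 4, the tumours of that group with the least Il5ra.

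Among 7 tested genes of a 10-gene eosinophil list, 3 rose with PARPi+ICB (Alox15, Ear2, Prg2), 2 in the full combination (Alox15, Prg2), 2 with PARPi+anti-VEGFA (Alox15, Prg2) and Prg2 alone with ICB. Of all genes, 9.58%, 12.6%, 9.99% and 1.23% rose in these comparisons. The PARPi+ICB count was 0 when PARPi+ICB replicate 3 or control replicate 2 was left out and 1 when control replicate 1 or 3 was. The PARPi+anti-VEGFA count was 0 when control replicate 1 was left out, and 1 when control replicate 2, control replicate 3, PARPi+anti-VEGFA replicate 3 or PARPi+anti-VEGFA replicate 4 was. With ICB the count was 0 without control replicate 1, control replicate 2 or ICB replicate 2. Alox15, a lipoxygenase of eosinophils and of peritoneal macrophages, rose by 3.01 ± 0.75 log2 units in the full combination (adjusted p = 0.00756). Of 6 tested attractants of eosinophils and type 2 cytokines, 5 rose in PARPi+ICB and in the full combination alike (Ccl11, Ccl24, Ccl5, Ccl8, Il33). With PARPi+anti-VEGFA, where Il5ra stood near the control level, 4 of the 6 rose too (Ccl11, Ccl5, Ccl8, Il33), and with ICB, where Il5ra was higher, Ccl8 alone did, a call lost as any one tumour of either group was left out. The shares of all genes are those just given. Without control replicate 1 both counts were 3, and that of PARPi+ICB was 3 also without control replicate 2 or PARPi+ICB replicate 3. Ccl8 changed most, by 2.88 ± 0.39 (adjusted p = 0.000218) and 3.06 ± 0.38 (adjusted p = 6.65e-05).

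Bhlhe41, a transcription factor needed for normal B-1a cells, rose modestly and in the same 3 groups as Csf2rb. It stood at 15.2, 12.4 and 14.1 CPM in controls, 18.5, 15.2 and 16.7 with PARPi, 17.5, 17.3 and 15.4 with ICB, and 21.5, 17.3 and 22.9 with PARPi+ICB. With PARPi+anti-VEGFA it stood at 23.1, 18.5, 22.5 and 19.5 CPM and in the full combination at 19.8, 17.6, 25.6 and 17.3. Every treated tumour but PARPi replicate 2 lay above the highest control. The rise against control was 0.59 ± 0.14 log2 units with PARPi+anti-VEGFA (adjusted p = 0.00672), 0.57 ± 0.14 with PARPi+ICB (adjusted p = 0.0125) and 0.53 ± 0.14 in the full combination (adjusted p = 0.00925). Without control replicate 2 the latter 2 were not called (adjusted p = 0.0625 and 0.0532), nor was PARPi+ICB without its replicate 3 (0.0653). PARPi (0.28 ± 0.14) and ICB (0.27 ± 0.14) were not called. The RNA quality genes moved against both Bhlhe41 and Csf2rb, with a median rho of -0.52 and -0.51 over the 20 tumours, and their part in these rises was not tested.

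Zbtb32, a transcriptional repressor enriched in B-1 cells, was called in no comparison. It had 49, 35 and 44 counts in controls, 28, 44 and 28 with ICB, 70, 49 and 79 with PARPi+ICB, and 39, 80, 115 and 53 in the full combination. ICB, where Il5ra was raised, had the lowest mean Zbtb32, 1.07 ± 0.341 CPM (SD, n = 3), against 1.39 ± 0.192 in controls (n = 3). The largest change was 0.79 ± 0.34 log2 units in the full combination (adjusted p = 0.0957, and 0.0294 without its replicate 1).

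The antibody gene segments Ighv11-2 and Igkv14-126, which together form a receptor for phosphatidylcholine typical of B-1a cells, behaved differently from both transcription factors. Ighv11-2 stood at 112, 13.4 and 38.4 CPM in controls, 12.7, 11.2 and 5.12 with PARPi, and 26.7, 121, 72.1 and 17.2 with PARPi+anti-VEGFA. With ICB it stood at 49.95, 135 and 70.9 CPM, with PARPi+ICB at 141, 1242 and 96.9, and in the full combination at 905, 394, 245 and 128. Tumours of the same group differed widely, and PARPi+ICB replicate 2 alone stood far above both other tumours of its group. Against control, Ighv11-2 rose by 3.18 ± 1.01 log2 units with PARPi+ICB (adjusted p = 0.0389) and by 2.94 ± 0.97 in the full combination (adjusted p = 0.0351). Igkv14-126 rose by 3.16 ± 0.93 (adjusted p = 0.028) and 2.86 ± 0.90 (adjusted p = 0.0276). Leaving out control replicate 2 or 3 ended all 4 calls, and leaving out PARPi+ICB replicate 2 or full combination replicate 1 those of its own group, with PARPi+ICB at 1.13 for Ighv11-2 and 1.34 for Igkv14-126 without its replicate 2. Without full combination replicate 2 the Ighv11-2 call in that group was lost as well. These 2 segments were added to the partners of Il5ra after their values were seen.

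Of the 11 genes of the B-1 list, 7 rose with PARPi+ICB (Arid3a, Bhlhe41, Cd5, Ighv11-2, Igkv14-126, Mzb1, Siglecg), 8 in the full combination (these and Spn) and 6 with PARPi+anti-VEGFA (Arid3a, Bhlhe41, Cd5, Mzb1, Siglecg, Spn), where 9.58%, 12.6% and 9.99% of all genes rose. With ICB, 1 of the 11 rose (Mzb1, adjusted p = 0.0464), against 1.23% of all genes, and none did as any one tumour of either group was left out. Without control replicate 2 the first 2 counts were 4 and 5. With PARPi+ICB, in the full combination and with PARPi+anti-VEGFA, the median log2 change of the list was 1.35, 1.16 and 0.59. These medians include the 2 antibody segments, which were chosen with their values known, and so do the counts with PARPi+ICB and in the full combination. Neither segment was called with PARPi+anti-VEGFA, so that the lead of those counts over its count rested on the segments. Without the segments the middle gene was Fcrl5 with PARPi+ICB (0.91) and with PARPi+anti-VEGFA (0.98), and Zbtb32 in the full combination (0.79). The order of the 3 medians thus rested on the segments. Several of these genes are not particular to B-1 cells: Cd5 is also a T cell gene, and Mzb1 belongs to plasma cells, whose 10 listed genes rose in all 3 comparisons.

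Against control the members were called most often in the 3 groups where many other genes were called too. Of the 5 members tested besides Il5ra, 0 rose with PARPi, where 0.0551% of 18144 genes did, and 1 with ICB (Prg2), where 1.23% did. Csf2rb, Prg2 and Bhlhe41 made 3 of 5 with PARPi+anti-VEGFA, where 9.99% of all genes rose, 3 of 5 with PARPi+ICB (9.58%), and 3 of 5 in the full combination (12.6%). With control replicate 2 or PARPi+ICB replicate 3 left out the PARPi+ICB count was 1, and with control replicate 1, control replicate 2 or ICB replicate 2 left out the ICB count was 0. These 5 comparisons share the 3 control tumours, so that a low control value moves all of them.

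**Figure D2:**
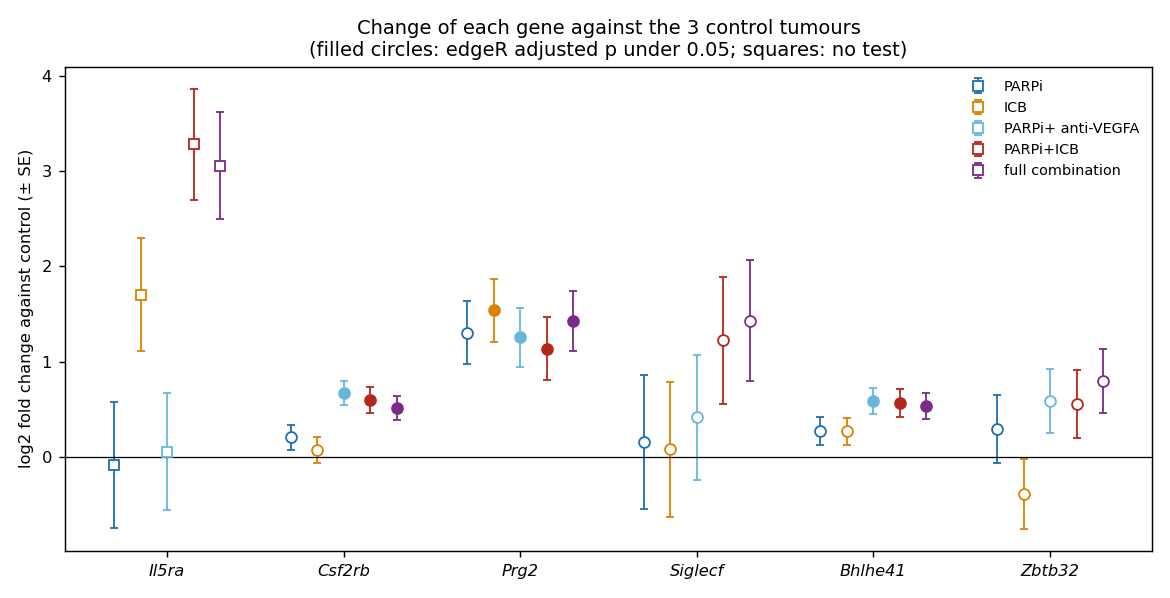
Fitted log2 fold change against control with its SE (y axis) of the 6 genes that passed the filter (x axis), 1 marker per treatment; filled circles passed the edgeR test at an adjusted p under 0.05 and the squares of Il5ra were not tested. Il5ra spreads from near 0 to 3.28 between treatments, while Prg2 lies between 1.14 and 1.54 in all 5.

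Where 1 agent was added to another treatment, no tested member was called, and Il5ra was given no test. The shares of all genes called in either direction were 1.26% for PARPi+ICB against PARPi, 0.871% for PARPi+ICB against ICB and 0.573% for PARPi+anti-VEGFA against PARPi. They were 0.0882% for the full combination against PARPi+anti-VEGFA and 0.0% for the full combination against PARPi+ICB (0 genes with edgeR, 745 at an unadjusted p under 0.05, 12 with DESeq2). Adding ICB to PARPi+anti-VEGFA, where Il5ra stood 3.00 ± 0.50 log2 units higher, gave 0.17 ± 0.28 for Prg2, 1.01 ± 0.56 for Siglecf, -0.06 ± 0.12 for Bhlhe41, 0.21 ± 0.30 for Zbtb32 and -0.16 ± 0.12 for Csf2rb. Adding ICB to PARPi gave -0.17 ± 0.32 for Prg2, 1.07 ± 0.66 for Siglecf, 0.29 ± 0.14 for Bhlhe41 and 0.27 ± 0.35 for Zbtb32. Csf2rb stood 0.52 ± 0.14 higher in PARPi+ICB than in ICB (adjusted p = 0.0701), and was called without ICB replicate 3, at 0.66 (adjusted p = 0.022).

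Whether the effect of ICB differed with PARPi was tested as an interaction, in which no gene of 18144 was called with edgeR (0.0%, with 946 at an unadjusted p under 0.05 and 11 called with DESeq2). Prg2 had the value -1.71 ± 0.46 there (unadjusted p = 0.00157, adjusted p = 0.958), with a change against control of 1.303 for PARPi, 1.54 for ICB and 1.14 for both. The interaction of ICB with anti-VEGFA under PARPi also called no gene (0.0%, 1188 at an unadjusted p under 0.05, 17 with DESeq2), and Csf2rb stood at -0.55 ± 0.18 (adjusted p = 0.614).

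Among tumours given the same treatment, no member rose or fell with Il5ra by the test over all genes. The slope of each of 18143 genes on log2 CPM of Il5ra, with group in the model, called no gene with edgeR (0.0%, 1438 at an unadjusted p under 0.05, 0 with limma on the deposited values). The slope per log2 unit of Il5ra was -0.28 ± 0.13 for Prg2 (unadjusted p = 0.0451, adjusted p = 0.621) and -0.28 ± 0.14 for Zbtb32 (adjusted p = 0.632). It was 0.34 ± 0.30 for Siglecf (adjusted p = 0.806), and within 0.01 of zero for Csf2rb and Bhlhe41. Prg2 and Zbtb32 thus leaned the opposite way from Il5ra within groups, short of the threshold. In the 10 tumours given no checkpoint antibody Il5ra had 2 to 18 counts, so that counting error makes up part of its variation within groups. A slope near zero therefore does not show that a gene is unrelated to Il5ra.

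As correlations over the 20 tumours, 7 relations were examined, with two-sided permutation tests of 100000 resamples. Tumours were shuffled without regard to group, so that these p also take in differences between treatments. Siglecf gave the highest value of the 5 members, Pearson's r = 0.444 (permutation p = 0.0493) and Spearman's rho = 0.432 (p = 0.0595), and r = 0.464 (p = 0.0523) without the 2 tumours farthest from the median of Il5ra. Without PARPi+ICB replicate 3 its r was 0.333. Bhlhe41 had r = 0.336 and rho = 0.329 (permutation p = 0.148 and 0.156), and 0.428 for r without those 2 tumours. Csf2rb had r = 0.266 and rho = 0.302 (permutation p = 0.256 and 0.197), and Prg2 r = 0.132 and rho = 0.132 (permutation p = 0.585 and 0.577). Their r without the 2 tumours was 0.189 and 0.300. Without PARPi+anti-VEGFA replicate 4 the r of Csf2rb was 0.522 (permutation p = 0.0226). Zbtb32 was nearest zero, with r = 0.0486 and rho = 0.0632 (permutation p = 0.839 and 0.792), and r = -0.0436 without the 2.

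Within groups, deviations from the group means gave r = -0.498 for Prg2 (permutation p = 0.0391 within groups, rho = -0.409, p = 0.118) and r = -0.478 for Zbtb32 (permutation p = 0.0654, rho = -0.364, p = 0.161). Without the 2 tumours farthest from the median the first was -0.442 (permutation p = 0.106), and it ranged from -0.571 to -0.405 as each tumour was left out. Siglecf had r = 0.281 (permutation p = 0.281), Bhlhe41 0.0133 (p = 0.962) and Csf2rb -0.0019 (p = 0.995).

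The relations were repeated in the 10 tumours given them and in the 10 others. Csf2rb had r = 0.739 in the former (permutation p = 0.0151, rho = 0.721) and r = -0.163 in the latter (permutation p = 0.657), and the difference between the 2 sets was not tested. In the former set, PARPi+ICB and the full combination both had more Csf2rb and more Il5ra than ICB, and within groups of that set the value was 0.342 (permutation p = 0.403). Prg2 was negative in both sets (r = -0.505 and -0.294, permutation p = 0.136 and 0.416) and Siglecf positive in both (r = 0.471 and 0.419, permutation p = 0.170 and 0.228). Zbtb32 had r = 0.328 in the former and -0.493 in the latter (permutation p = 0.355 and 0.147).

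**Figure D3:**
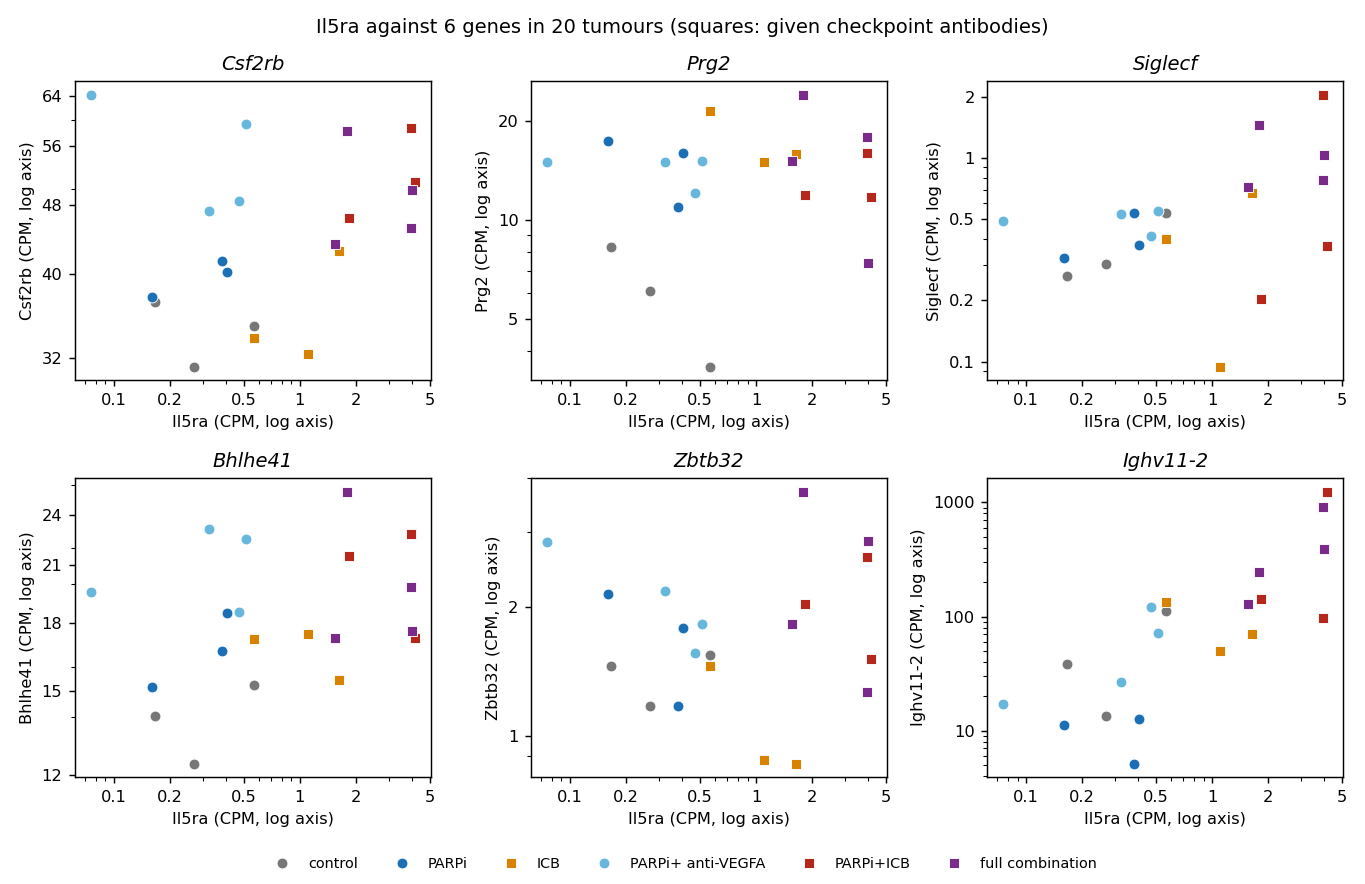
Level of Il5ra (x axis, CPM, log axis) against that of 5 members and of Ighv11-2 (y axis, CPM, log axis) in each of the 20 tumours, with squares for the 10 given checkpoint antibodies. Prg2 and Zbtb32 show no common trend with Il5ra (rho = 0.132 and 0.0632). Ighv11-2, a segment added after its values were seen, has rho = 0.842 over all tumours and Pearson's r = 0.495 within groups.

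The 2 B-1a antibody segments had higher correlations with Il5ra than the members. They were added after their values were seen, so that these are descriptions over tumours that share the differences between treatments, and no test set them against the members. Ighv11-2 had r = 0.804 and rho = 0.842, and r = 0.742 without the 2 tumours farthest from the median. Igkv14-126 had r = 0.799 and rho = 0.842, and r = 0.738 without them. By Spearman's rho they shared rank 4 of 18143 genes, while Siglecf ranked 2153, Bhlhe41 3519, Csf2rb 3925, Prg2 6650 and Zbtb32 7884. Within groups the r of Ighv11-2 was 0.495 (permutation p = 0.0611) and that of Igkv14-126 was 0.416 (permutation p = 0.119). In the 10 tumours given checkpoint antibodies the r of Ighv11-2 was 0.633 (rho = 0.733), and in the 10 others 0.438 (rho = 0.515), both below the value over 20 tumours.

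The slope over all 20 tumours, with the differences between groups left in, called 463 genes that rose with Il5ra, 2.55% of those tested, and 460 that fell. The number called in all, 923, ranged from 193 without PARPi+ICB replicate 3 to 2361 without PARPi+anti-VEGFA replicate 4. It was 1888 without the 4 tumours with acinar RNA. No member was called. Siglecf came nearest, at 0.35 ± 0.11 per log2 unit of Il5ra (adjusted p = 0.0655), and passed without PARPi+ICB replicate 2 (adjusted p = 0.0399), PARPi+ICB replicate 1 (0.0468), ICB replicate 1 (0.0422) or PARPi+anti-VEGFA replicate 4 (0.035). Of the 11 B-1 genes 2 were called, the segments Ighv11-2 (1.12 ± 0.16) and Igkv14-126 (1.019 ± 0.15) that were chosen with their values known, and 6 were without the 4 tumours with acinar RNA. Il5 was called at 0.62 ± 0.18 (adjusted p = 0.0447), a call lost in 14 of the 20 fits that each leave out 1 tumour.

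**Figure D4:**
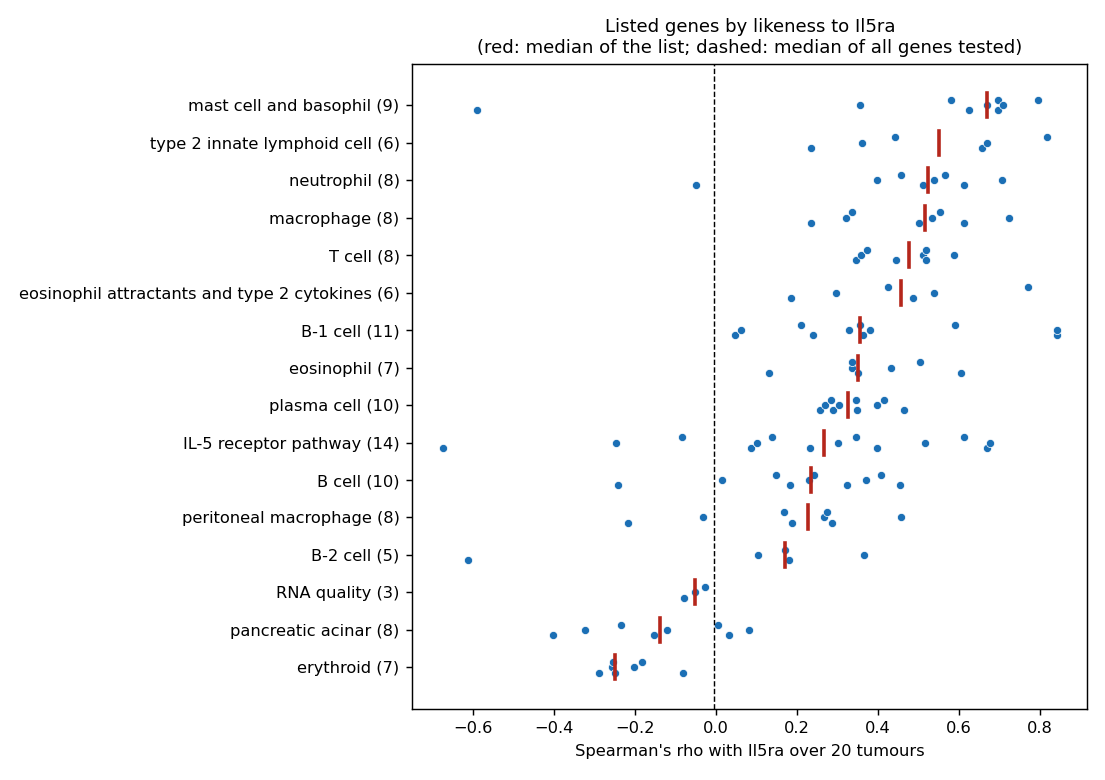
Spearman's rho with Il5ra over the 20 tumours (x axis) of each tested gene of 16 marker lists (y axis, number of genes in brackets), with the median of each list in red and the median of all genes tested dashed. The eosinophil and B-1 lists have nearly the same median, 0.35 and 0.36, below those of the mast cell list at 0.67 and the type 2 innate lymphoid cell list at 0.55.

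As lists, the 2 cell types had nearly the same median likeness to Il5ra, and no test compared them. The median rho was 0.35 over 7 eosinophil genes and 0.36 over 11 B-1 genes, against -0.00451 over all genes. The B-1 median includes the 2 segments chosen with their values known, without which the middle gene was Bhlhe41 at 0.33. The eosinophil median covers only genes that passed the filter, without Epx and Ear6. Higher medians belonged to mast cells and basophils (0.67 over 9 genes), type 2 innate lymphoid cells (0.55 over 6), neutrophils (0.52 over 8) and macrophages (0.52 over 8). These lists share the 20 libraries and the same differences between treatments, so that their medians are descriptions. Of the 9 mast cell and basophil genes tested, 6 rose with Il5ra by the slope over all tumours, against 2.55% of all genes. They were the mast cell proteases Tpsb2 (0.41 ± 0.06, adjusted p = 0.00073), Cpa3 (0.34 ± 0.05, adjusted p = 0.00218), Cma1 and Mcpt4, and the chains Fcer1a and Ms4a2 of the IgE receptor. Kit, the stem cell factor receptor that mast cells depend on, went the other way. Its rho with Il5ra was -0.589, rank 17362 of 18143, its slope was -0.11 ± 0.04 (adjusted p = 0.0603), and against control it fell by 0.67 ± 0.16 log2 units with PARPi+ICB (adjusted p = 0.00704) and by 0.51 ± 0.14 in the full combination (adjusted p = 0.0159). The basophil protease Mcpt8 was never above 5 counts. Of 6 genes of type 2 innate lymphoid cells, which secrete interleukin-5, 3 rose, against the same 2.55% of all genes. They were led by Il1rl1, the interleukin-33 receptor (0.50 ± 0.06, adjusted p = 0.000364), and 1 rose without PARPi+ICB replicate 3.

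The list with the highest median rho differed between members, and no difference between lists was tested. Prg2 was closest to the plasma cell list, with a median rho of 0.58 over 10 genes against 0.24 over 6 other eosinophil genes. Siglecf was closest to the peritoneal macrophage list and the macrophage list, at 0.71 each, against 0.41 over the other eosinophil genes. Bhlhe41 was closest to T cells (0.83) and plasma cells (0.82), with 0.67 for the other B-1 genes, and Zbtb32 to B cells in general (0.69), with 0.61 for the other B-1 genes. Csf2rb, like Siglecf, was close to macrophages (0.80). Only Il5ra among the 6 had its highest median with the mast cell and basophil list.

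**Figure D5:**
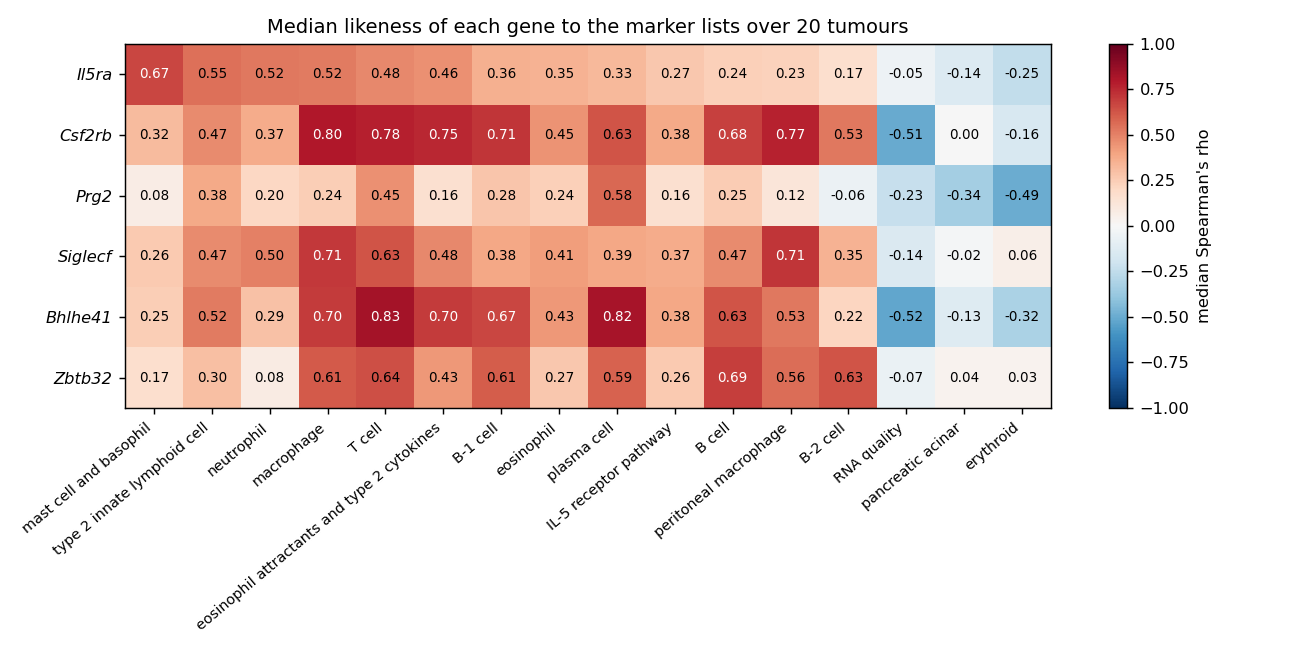
Median Spearman's rho over 20 tumours of each of the 6 tested genes (rows) with the genes of 16 marker lists (columns), the gene itself left out of its list; colour and printed value give the same number. Prg2 is highest with plasma cells (0.58), Siglecf with the 2 macrophage lists (0.71) and Il5ra with mast cells and basophils (0.67).

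The genes most like Il5ra over the 20 tumours, among named genes of at least 1 CPM and leaving out antibody segments, were Rpl17, a ribosomal protein gene (rho = 0.863), Ighm, the heavy chain of IgM (0.850), and Col6a5, a collagen (0.847). They were followed by Lipc (0.839), Rasl11b (0.833), Trabd2b (0.832), Rnase2a (0.826), the mast cell protease Mcpt1 (0.826), Retnla, a gene of alternatively activated macrophages (0.826), and Sult5a1 (0.824). By deviations from group means the 10 closest were other genes, among them Ndufaf7 (r = 0.877), Prss23 (0.821), Cox18 (0.815), Phlda3 (0.786), Cd320 (0.780), Ywhae (0.774), Entpd6 (0.772), Atg16l2 (0.764) and Zfp503 (0.757). No gene stood in both sets of 10, and Ndufaf7 had a rho of -0.269 over the 20 tumours.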

How the data were processed

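Bulk RNA of 20 tumours was read from 2 deposited tables. The authors deposited raw read counts per Ensembl gene, made with STAR and HTSeq on GRCm38 per the submitters' processing notes; versions, annotation release and strand setting are not given in the sources used here. They also deposited log2 values of RPKM with 1 added, per the file headers for coding sequence. Checked on 12480 genes, the length behind that RPKM was the genomic span with introns for 99.7% and the exonic length for 1.93%, within 2%, so levels between genes are given here as CPM per kilobase of GENCODE M21 exon.

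Symbols were matched for 55141 of 55406 genes. In edgeR 4.0.16 (R 4.3.3), 18144 genes passed filterByExpr (minimum count 10, minimum total 15); TMM factors, 1 coefficient per group and quasi-likelihood F tests followed, with Benjamini-Hochberg adjustment per contrast and a threshold of 0.05. The SE was taken from the F statistic and the change. All 20 tumours entered each fit. Slopes used log2 CPM of Il5ra (prior count 2). CPM use effective library sizes. The floor is 3 counts over a group and covers counting error only. The test was checked on simulated data, but no result of that check is given here, so it lends no support to the calls.

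The members, the 16 lists (139 genes) and the tests were chosen with earlier results of these data known. Named genes are the members, Csf2rb2 and Il5, from each list up to 4 genes with the smallest p and those with counts of 0, and the 10 genes most like Il5ra by each of 2 measures. Of these 20 genes, 1 is not reported here. Genes given in full as the called members of a list, and the other tumours' values of Ccr3, Ear2, Prg3 and Mcpt8, were named after their values were seen. No promoter of Prg2 or Csf2rb and no protein sequence is shown. Alternatives were DESeq2 1.42.0 (size factors, and its Wald test), no filter, replicate number as a block, the compared groups alone, limma 3.58.1 on the deposited log2 values, a prior count of 0.5, each tumour left out and, chosen after seeing the data, the 4 tumours with acinar RNA left out and the 2 sets by checkpoint antibody.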

Additional observations from a re-analysis of the deposited data

Results flagged for a closer look

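Prg2 in PARPi+anti-VEGFA replicate 2, at 12.1 CPM, lay apart from the other 3 tumours of its group, which stood between 14.96 and 15.1 CPM; its gap to the nearest was 0.956 of the range of the group, above Dixon's critical value for 4 samples. The 3 others were unusually close together. Chance gives a gap above that critical value in about 1 of 20 groups, and 30 were examined (15 genes in 2 groups of 4).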

How the results depend on the processing

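Exceptions to the direction or the side of the threshold follow, with those of single genes and single omitted tumours also beside their results, and the cause was not tested for any of them. With the DESeq2 Wald test, 1 member was called with PARPi against control (Prg2), 1 in PARPi+ICB against ICB (Csf2rb) and 1 in PARPi+anti-VEGFA against PARPi (Csf2rb), where edgeR called 0. Without the 4 tumours with acinar RNA, 1 member was called in PARPi+ICB against ICB, and the change with ICB against control was -0.062 for Csf2rb and -0.59 for Siglecf; Il5 was then not called with ICB (adjusted p = 0.0525) or PARPi+anti-VEGFA (0.112), nor Ighv11-2 in the full combination (0.0511). Fitting only the groups compared called Siglecf in the full combination (adjusted p = 0.0345), so that 4 members were called there, and ended the calls of Ighv11-2 (0.0959) and Igkv14-126 (0.0693) with PARPi+ICB. With no filter Il5 was not called with PARPi+anti-VEGFA (0.0518) or in the slope over all tumours (0.0689). As each tumour was left out, the members called numbered from 0 to 1 for ICB against control, from 1 to 3 for PARPi+ICB against control, from 0 to 1 for PARPi+ICB against ICB and from 0 to 1 for the slope over all tumours. The log2 change against control then ranged for Siglecf from -0.079 to 0.53 (PARPi), from -0.59 to 0.54 (ICB) and from -0.35 to 1.71 (PARPi+ICB), for Csf2rb from -0.062 to 0.15 (ICB), and with PARPi+anti-VEGFA from -0.50 to 1.19 for Ighv11-2 and -0.52 to 0.91 for Igkv14-126.

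Pearson's r with Il5ra over 20 tumours ranged, as each was left out, from 0.178 to 0.522 for Csf2rb, 0.333 to 0.554 for Siglecf and -0.0645 to 0.200 for Zbtb32. Within groups it ranged from -0.150 to 0.310 for Csf2rb, -0.571 to -0.405 for Prg2, -0.0919 to 0.189 for Bhlhe41 and -0.574 to -0.384 for Zbtb32. In the 10 tumours given checkpoint antibodies r was 0.739 for Csf2rb, -0.505 for Prg2 and 0.471 for Siglecf, and in the 10 others -0.163, -0.294 and 0.419, with -0.493 for Zbtb32. Without the 2 tumours farthest from the median it was 0.464 for Siglecf and -0.0436 for Zbtb32, and within groups -0.442 for Prg2 and -0.554 for Zbtb32. On the deposited log2 RPKM the values within groups were 0.142 for Csf2rb, -0.388 for Prg2 and -0.258 for Bhlhe41. DESeq2 size factors gave 0.00444 for Csf2rb within groups, and a prior count of 0.5 gave 0.413 for Siglecf.

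Same-numbered tumours did not pair: of 46 pairs, 8 correlated above 0.1 in their deviations from group means, and 6 of 20 tumours correlated best with their own number. With the replicate number as a block, 1 member was called in PARPi+ICB against ICB, Ighv11-2 was not called with PARPi+ICB (adjusted p = 0.0618), Siglecf stood at -0.13 with ICB against control, and the genes called numbered 20 in place of 12 with PARPi, 266 in place of 158 in PARPi+ICB against ICB, and 54 in place of 16 in the full combination against PARPi+anti-VEGFA.

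Counts over all genes moved most with the tool. With DESeq2 they were 349 with PARPi, 1031 in place of 400 with ICB, 812 in place of 229 in PARPi+ICB against PARPi, 824 in PARPi+ICB against ICB, 649 in place of 104 in PARPi+anti-VEGFA against PARPi, and 251 in the full combination against PARPi+anti-VEGFA. With limma they were 1, 149, 39 and 21 in PARPi against control, PARPi+ICB against PARPi, PARPi+ICB against ICB and PARPi+anti-VEGFA against PARPi. Fitting only the groups compared gave 171, 118 and 0 in the first 3 of these. With no filter, 70 genes were called with PARPi and 63 in the full combination against PARPi+anti-VEGFA. Without the 4 tumours with acinar RNA, 0 were called with PARPi, 552 in PARPi+ICB against ICB, 3 in the full combination against PARPi+anti-VEGFA and 1 in the interaction of PARPi and ICB. Depth limits Il5ra, Siglecf and Il5, whose lowest tumours had 2, 3 and 0 counts.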
